A study of Sus scrofa with 6 samples.

Results

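Heat shock proteins and their partner chaperones were described in RNA of peripheral blood mononuclear cells (PBMCs, the lymphocytes and monocytes separated from blood) of 6 pigs. The 10 members were HSPA8, HSPA4, HSPH1, DNAJB1, HSP90AA1, HSP90AB1, HSPA5, HSP90B1, HSPD1 and HSPE1, taken from the table by gene symbol. The symbol column of the deposited table, which held 11564 genes, gave 7 of them. The other 3, HSPA8 (ENSSSCG00000015140), HSP90AA1 (ENSSSCG00000002535) and DNAJB1 (ENSSSCG00000013784), had rows with no symbol and were identified through a reference table of gene identifiers. All 10 passed the filter on low values, an FPKM (fragments counted on a gene, corrected for its transcript length and for the size of the library) of at least 1 in at least 3 libraries, as did 10735 genes in all.

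All pigs were Yorkshire pigs of 6 months. 3 libraries were labelled WT and 3 Leptin-overexpressing, each from a different animal, and no drug treatment was given in the labels. The transgenic pigs carried a leptin construct under the pig leptin promoter and came from somatic cell nuclear transfer with neomycin-selected fibroblasts of a fetus. Cloning and selection thus went with the transgene in these animals. The paper reports no obvious pathological changes and no immunoglobulin G deposits in kidney sections of cloned pigs of its authors' earlier work. Those were Banna miniature inbred pigs and pigs with other genetic changes, and the sections do not cover blood RNA. No label recorded how an animal was handled before its blood was taken.

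Chaperones bind unfolded or partly folded proteins and keep them from aggregating. HSP70 proteins work in cycles of ATP hydrolysis that J-domain proteins start and that nucleotide exchange factors of the HSP110 type reset, and HSP90 takes over kinases and steroid receptors late in folding. Most of these genes are expressed in unstressed cells, the cytosolic ones are induced further by heat shock factor 1 when proteins unfold in the cytosol, and those of the endoplasmic reticulum (ER) and of the mitochondrion answer to stress signals of their own compartment. In blood leukocytes, heat and fever are known to raise the heat-inducible ones.

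LEP (ENSSSCG00000016588) was read in every library first, because it checks the labels. It stood at 50.0 FPKM in the library labelled WT replicate 1 and was listed at 0 in that labelled Leptin-overexpressing replicate 1, so both replicate 1 libraries went against their labels. The other 4 did not: WT replicates 2 and 3 had 0 and 0.118 FPKM, and leptin replicates 2 and 3 had 18.3 and 39.3 FPKM. No sample was moved to another group. Differences between labels are given over all 6 libraries, and those the results turn on also without WT replicate 1 or without both replicate 1 libraries. T cell markers (7 of 7 in the table, CD3E, CD3D and CD3G among them), B cell markers (4 of 5), NK cell markers (5 of 5) and monocyte markers (5 of 6) were detected in every library.

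The library labelled WT replicate 1 also stood apart in the summed FPKM of the neutrophil and erythroid marker lists. The 5 neutrophil markers in the table of 10 searched summed to 3459 FPKM there, against 359 to 1043 FPKM in the other 5 libraries, and 4 of the 5 were highest in it. Most of that sum came from S100A12 (1702 FPKM), S100A9 (1031) and S100A8 (699). Of the granule genes, LTF was at 25.6 FPKM there. ELANE was at 0.651 FPKM there and was highest in leptin replicate 1 (1.05). The sum thus mainly shows the S100 genes, and which cells they came from was not tested. The 2 erythroid markers in the table, HBB and ALAS2, summed to 217 FPKM there against 21.8 to 102 FPKM elsewhere. HBB made up 211 of these, whereas ALAS2 was at 5.70 FPKM and was higher in leptin replicate 2 (6.86) and in WT replicate 3 (5.89). MPO, CAMP, CSF3R, CXCR2 and FPR1 of the neutrophil list and HBA1 of the erythroid list were not analysed here. Monocyte markers summed to 823 FPKM against 369 to 817 FPKM, platelet markers to 503 against 167 to 468 FPKM, NK cell markers to 573 against 232 to 544 FPKM, and B cell markers to 306 against 479 to 582 FPKM. T cell markers did not stand apart, at 802 against 572 to 978 FPKM.

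In the WT-labelled group these sums ranged from 361 to 3459 FPKM for neutrophil markers, 369 to 823 for monocyte markers and 306 to 582 for B cell markers. In the leptin-labelled group they ranged from 359 to 1043, 485 to 817 and 479 to 553 FPKM. Neutrophil markers and the cytosolic chaperones given next were both highest in WT replicate 1. Among the other 5 libraries neutrophil markers were highest in leptin replicate 2 (1043 FPKM) and WT replicate 2 (656 FPKM). The mean centred log2 profile of DNAJB1, HSPH1, HSP90AA1 and HSPA8 was at -0.28 and -0.31 in these. Neutrophil markers were lowest in leptin replicate 1 (359 FPKM) and WT replicate 3 (361 FPKM), where that profile was at -0.08 and 0.02. In leptin replicate 3 they were at 583 FPKM and the profile at -0.13. The part of these markers in the results was not tested. In a bulk sample, fewer cells of a type and less RNA per cell cannot be told apart.

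The members covered a wide range of levels. On the FPKM scale, which is per length and allows genes to be compared, HSPA8 was first with a mean of 431 over the 6 libraries, followed by HSP90AA1 (200.3), HSPA5 (169.6), HSP90B1 (130.3), HSP90AB1 (96.4), HSPE1 (65.9), DNAJB1 (53.0), HSPD1 (36.9), HSPA4 (22.5) and HSPH1 (17.6). HSP90AA1 and HSPA5 could not be ranked, since HSP90AA1 was the higher in only 4 of the 6 libraries. HSPE1 was above DNAJB1 in 5 of 6 libraries and HSPA4 above HSPH1 in 5 of 6, and in both pairs the exception was the library labelled WT replicate 1. All other neighbours in this order kept it in all 6 libraries, although the ranges of HSPA5 and HSP90B1, and those of DNAJB1 and HSPD1, overlapped across libraries.

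**Figure D1:**
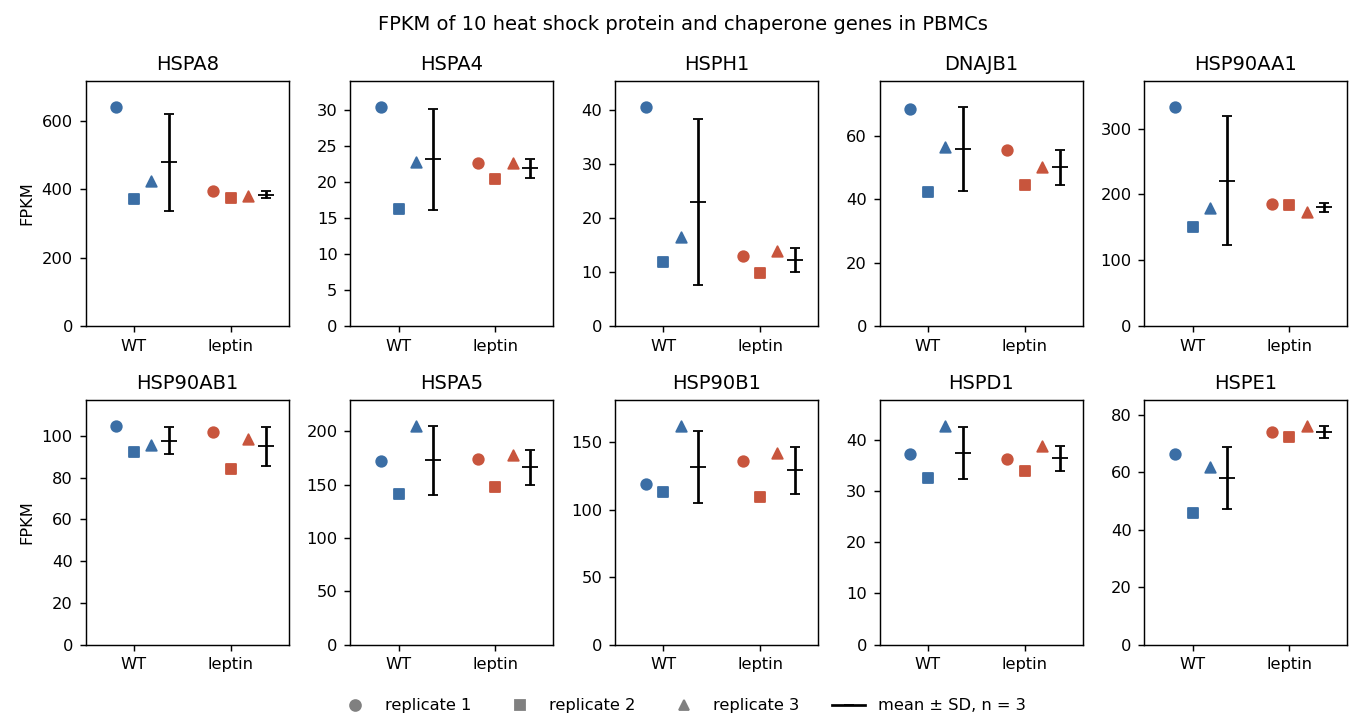
FPKM of each member (y axis, from 0) in the libraries labelled WT (blue) and Leptin-overexpressing (red), with the replicate number as the symbol and the mean ± SD of 3 libraries in black. The circle of WT replicate 1 is the top point for the 4 members of the cytosolic HSP70 system and for both cytosolic HSP90 genes, while HSPE1 is the member whose 3 leptin points all lie above the WT points.

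The cytosolic HSP70 system was highest in 1 library in each of its members. HSPA8 (chr9:55406198-55409607 in the coordinates of the deposited table), the constitutive cytosolic HSP70, stood at 640.2, 372 and 423 FPKM in WT replicates 1 to 3 and at 395, 375 and 381 FPKM in leptin replicates 1 to 3. The library labelled WT replicate 1 was 1.51 times the next highest, and the other 5 spanned only 1.14-fold. The leptin-minus-WT difference was -0.28 on the log2(FPKM + 1) scale (SE 0.21, n = 3 per label; limma, adjusted p = 0.993), and -0.05 without WT replicate 1.

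HSPH1 (chr11:7585524-7661067), the HSP110 protein that exchanges nucleotide on HSP70, had the largest ratio of highest to lowest library of the 10, at 4.14. It was at 40.5, 11.9 and 16.6 FPKM under the WT label and at 13.0, 9.78 and 13.8 FPKM under the leptin label. WT replicate 1 was thus 2.45 times the next highest library and 3.11 times the median of the other 5, which among themselves spanned 1.69-fold. The difference between labels was the largest in size among the members at -0.69 (SE 0.39, 95% interval -1.59 to 0.22; limma, adjusted p = 0.993), and it was -0.20 (SE 0.22) without WT replicate 1 and -0.25 without both replicate 1 libraries.

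HSPA4 (chr2:140866276-140911654), also of the HSP110 family, was at 30.3, 16.3 and 22.7 FPKM in the WT-labelled and at 22.6, 20.4 and 22.7 FPKM in the leptin-labelled libraries. The WT-labelled values lay on both sides of all leptin-labelled ones. Their means, 23.1 ± 7.04 and 21.9 ± 1.30 FPKM (SD, n = 3), differed by less than either label's SD (log2 difference -0.04, SE 0.22; limma, adjusted p = 0.997), and the difference was 0.17 without WT replicate 1.

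DNAJB1 (chr2:65177576-65180388), the J-domain partner that directs HSP70 to its substrates and a textbook heat shock gene, was at 68.7, 42.2 and 56.6 FPKM under the WT label and at 55.5, 44.5 and 50.3 FPKM under the leptin label. Again both extremes were WT-labelled libraries. The log2 difference was -0.13 (SE 0.20; limma, adjusted p = 0.993) and turned to 0.03 without WT replicate 1. Relative to HSPA8, DNAJB1 varied little, from 0.107 in WT replicate 1 to 0.141 in leptin replicate 1.

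The HSP90 genes of the cytosol differed in how far they followed this pattern. HSP90AA1 (chr7:129758771-129761205), the stress-inducible isoform, was at 332, 149.8 and 179 FPKM in the WT-labelled and at 185, 183 and 173 FPKM in the leptin-labelled libraries. WT replicate 1 was 1.80 times the next highest library, and the other 5 spanned 1.24-fold. The label difference was -0.20 (SE 0.28; limma, adjusted p = 0.993) and turned to 0.14 without WT replicate 1.

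HSP90AB1 (chr7:45113268-45123953), the constitutive isoform, was nearly level across libraries. It was at 105, 92.5 and 95.7 FPKM under the WT label and at 102, 84.2 and 98.8 FPKM under the leptin label, a 1.25-fold span in all. WT replicate 1 was highest by a margin of only 1.03-fold. The label difference was -0.04 (SE 0.15; limma, adjusted p = 0.993), and 0.0097 without WT replicate 1. The ratio of HSP90AA1 to HSP90AB1, taken within a library and so free of scaling between libraries, was 3.17 in WT replicate 1 and 1.62 to 2.18 in the other 5.

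The ER members followed another library. HSPA5 (chr1:299754094-299758545, also called BiP), the HSP70 of the ER and a target of the unfolded protein response, was at 172, 141 and 205 FPKM under the WT label and at 174, 148 and 178 FPKM under the leptin label. HSP90B1 (chr5:84016445-84084086, also called GRP94), the HSP90 of the ER, was at 119, 113 and 162 FPKM in the WT-labelled and at 136, 109 and 142 FPKM in the leptin-labelled libraries. For both genes WT replicate 3 was the highest library, leptin replicate 3 the next, and WT replicate 1 only the fourth of 6. Label differences were -0.04 (SE 0.18) for HSPA5 and -0.02 (SE 0.19) for HSP90B1 (limma, adjusted p = 0.993 and 0.998), with the label groups overlapping throughout.

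In the mitochondrion HSPD1 and HSPE1 form the HSP60 chamber and its HSP10 lid, and they are encoded by neighbouring genes. HSPD1 (chr15:112534189-112547852) and HSPE1 (chr15:112548609-112550291) lay 756 bases apart. HSPD1 was at 37.1, 32.5 and 42.7 FPKM under the WT label and at 36.3, 33.9 and 38.9 FPKM under the leptin label, with the leptin-labelled values inside the WT range. Its log2 difference was -0.04 (SE 0.16; limma, adjusted p = 0.993).

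HSPE1 was the 1 member whose labelled groups did not overlap, against 7.63% of all genes tested. It was at 66.4, 45.7 and 61.6 FPKM in the WT-labelled libraries and at 73.7, 72.0 and 76.1 FPKM in the leptin-labelled libraries, means of 57.9 ± 10.9 and 73.9 ± 2.04 FPKM (SD, n = 3). The difference of 0.36 (SE 0.17, 95% interval -0.03 to 0.76; limma, p = 0.0676, adjusted p = 0.993) did not pass the test, and the exact two-sided permutation p of 0.1 is the smallest that 3 against 3 libraries can give. Without WT replicate 1 it was 0.47 (limma, unadjusted p = 0.0319), without both replicate 1 libraries 0.47 (unadjusted p = 0.0722) and without WT replicate 2 only 0.21 (unadjusted p = 0.261), and with median-of-ratios scaling the groups overlapped at a difference of 0.30.

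HSPE1 and HSPD1 did not keep a fixed ratio. HSPE1 over HSPD1 was 1.79, 1.41 and 1.44 in the WT-labelled libraries and 2.03, 2.12 and 1.96 in the leptin-labelled libraries, with no overlap. A second pair, HSPH1 over HSPA4, was 1.34, 0.729 and 0.728 under the WT label and 0.577, 0.480 and 0.610 under the leptin label, also with no overlap and so still without WT replicate 1. These ratios were chosen after the values had been seen and are given with no test. The other pairs read, HSP90AA1 over HSP90AB1, HSPA8 over HSPA5, DNAJB1 over HSPA8 and HSP90B1 over HSPA5, overlapped between labels. No share over other gene pairs was taken. Among single genes tested, 7.63% had no overlap over all libraries and 14.4% without WT replicate 1. HSP90B1 over HSPA5, the ER pair, varied least, from 0.693 to 0.801.

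**Figure D2:**
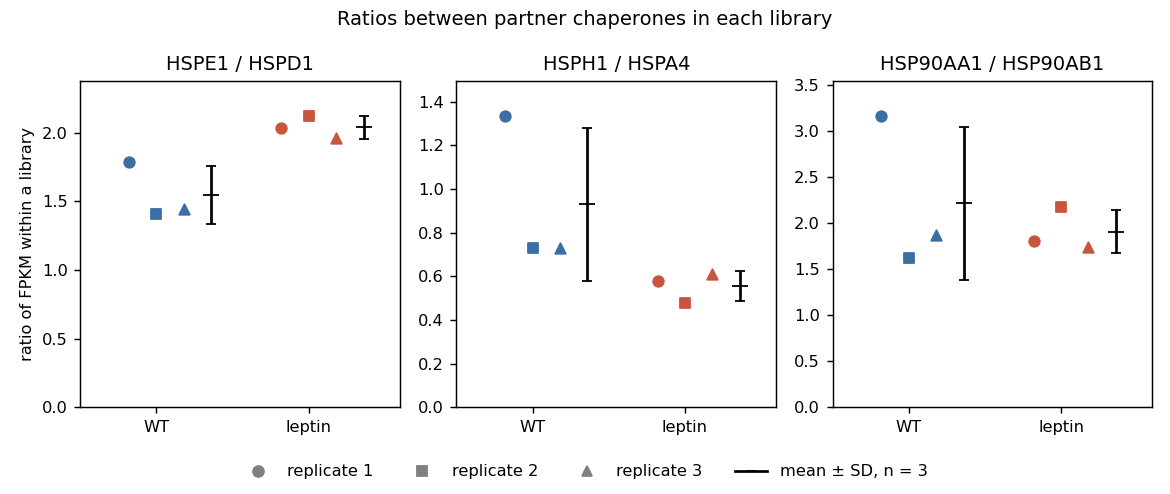
Ratio of FPKM within each library (y axis, from 0) for HSPE1 over HSPD1, HSPH1 over HSPA4 and HSP90AA1 over HSP90AB1, by label, with the replicate number as the symbol and the mean ± SD of 3 libraries in black. The labels separate in the first and second panels, and WT replicate 1 stands at 3.17 in the third, where the other 5 libraries lie between 1.62 and 2.18.

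By label, 0 of the 10 members had an adjusted p under 0.05 in limma, against 0.00932% of all genes tested, which is 1 gene, the small nucleolar RNA SNORD22. At an unadjusted p under 0.05 the count was also 0 of 10, against 3.18% of all genes tested. The median difference of the members was -0.04 and that of all genes tested 0.06, a shift of the whole table that came to 0.00 under median-of-ratios scaling. 9 members had the lower value under the leptin label, HSPE1 being the exception. Of all genes tested 63.1% were higher under that label, or 50.5% under median-of-ratios scaling. Only HSPA8 and HSPH1 of the 9 had a difference larger than its SE, and only they stayed lower under every alternative tried. With 3 libraries per label the intervals were wide, and for HSPH1 the 95% interval ran from -1.59 to 0.22.

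The spread within each label was read with no test. The members were measured in the same libraries, so they are not separate observations of it. In 9 of the 10 members the SD of FPKM was the smaller one under the leptin label, HSP90AB1 being the exception, against 57.5% of all genes tested. HSPA8 had an SD of 142 FPKM over the WT-labelled and 10.1 FPKM over the leptin-labelled libraries, and HSP90AA1 98.1 and 6.64 FPKM. Without WT replicate 1 the WT-labelled SD, over 2 libraries, was 36.1 FPKM for HSPA8, 20.6 for HSP90AA1 and 3.32 for HSPH1 (15.4 with it), whereas it changed less for HSPA4 (7.04 to 4.57) and DNAJB1 (13.3 to 10.2). The count of 9 was the same without WT replicate 1 (43.9% of all genes tested) and without both replicate 1 libraries (48.0%). For the spread, both of these were added after the data had been seen. An SD over 2 libraries reflects only the gap between them, and WT replicate 2 was the lowest library for 7 members. The values therefore do not show a difference in spread between the genotypes.

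**Figure D3:**
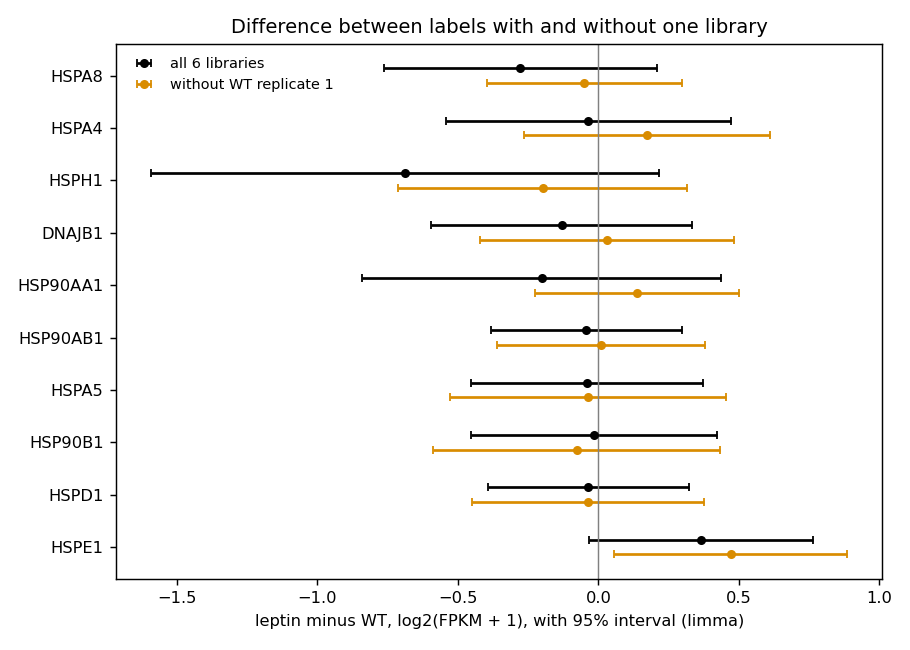
Difference between labels, leptin minus WT, on the log2(FPKM + 1) scale (x axis) for each member, with 95% intervals from limma, over all 6 libraries (black) and without WT replicate 1 (orange). Leaving out that library moves HSPH1 from -0.69 to -0.20 and narrows its interval, and it moves HSPE1 from 0.36 to 0.47.

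By library, 6 of the 10 members were highest in WT replicate 1, against 11.2% of all genes tested. These 6 were HSPA8, HSPA4, HSPH1, DNAJB1, HSP90AA1 and HSP90AB1, all those of the cytosol. 3 members, HSPA8, HSPH1 and HSP90AA1, had a value there at least 1.5 times the median of the other 5 libraries, against 5.02% of all genes tested. Over all genes tested, WT replicate 1 was by the median 0.17 below the other 5 on the log2 scale, so these members were high in a library that was mostly low. At the other end, 7 members were lowest in WT replicate 2, against 17.1% of all genes tested, and the other 3 were lowest in leptin replicate 2.

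Genes outside the 10 were then read from lists of the same pathways. The list nearest to the question of handling stress held other heat-inducible genes, which heat shock factor 1 is known to switch on, and 11 were tested. Of these, 8 were highest in WT replicate 1 (11.2% of all genes tested) and 7 were there at least 1.5 times the median of the other libraries (5.02% of all). By label 0 of the 11 had an unadjusted p under 0.05 (3.18% of all), 9 were lower and 2 higher under the leptin label where 63.1% of all genes tested were higher, and the median difference was -0.16, turning to 0.08 without WT replicate 1. HSPA1A, HSPA1B and HSPA6, the most strongly inducible HSP70 genes, were not analysed here.

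CHORDC1, an HSP90 cochaperone, was at 21.9 FPKM in WT replicate 1 and at 7.59 to 11.3 FPKM in the other 5 libraries. CACYBP was at 47.8 against 21.5 to 30.3 FPKM, and the small heat shock protein HSPB1 at 53.8 against 22.9 to 33.6 FPKM. STIP1, which bridges HSP70 and HSP90, was at 82.0 against 45.1 to 54.3 FPKM. All 4 thus lay clear of the other libraries in WT replicate 1.

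FKBP4, an HSP90-binding immunophilin, was at 73.0 against 40.8 to 49.2 FPKM, and BAG3, an exchange factor of HSP70 in autophagy, at 10.9 against 5.61 to 7.42 FPKM. AHSA1, the activator of the HSP90 ATPase, was at 18.2 against 12.5 to 15.5 FPKM, and ZFAND2A at 5.04 against 2.31 to 3.63 FPKM. The exceptions were DNAJA1, which was highest in WT replicate 2 at 367 FPKM, DNAJB4, highest in leptin replicate 1, and the polyubiquitin gene UBB, highest in leptin replicate 2 at 1597 FPKM. Apart from CACYBP, STIP1, HSPB1, DNAJA1 and UBB, the heat-inducible genes given here were singled out after their values had been seen.

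**Figure D4:**
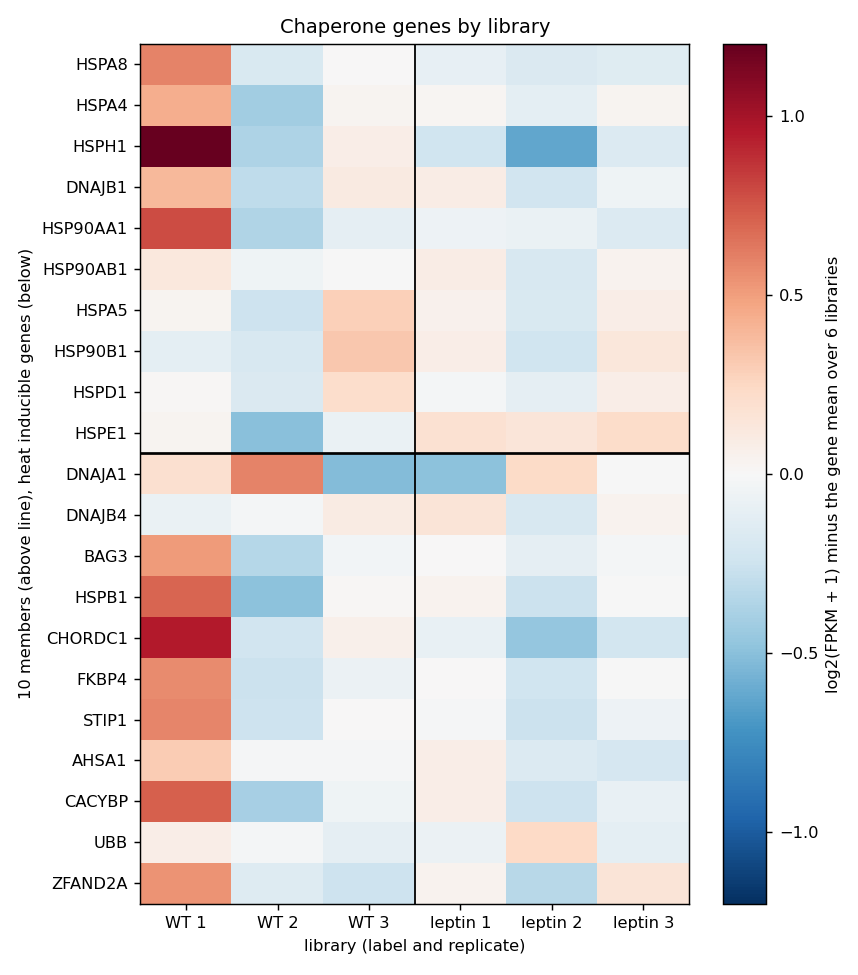
Members (above the line) and the 11 other heat-inducible genes tested (below) in the 6 libraries, coloured by log2(FPKM + 1) minus the gene's mean over the libraries, red for above and blue for below. The column of WT replicate 1 holds the highest value of the 6 cytosolic members and of 8 of the 11 heat-inducible genes, while HSPA5 and HSP90B1 are reddest in WT replicate 3.

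The genes most like the cytosolic members across libraries included 3 of the heat-inducible list. Likeness was the root mean square distance, in log2 units over the 6 libraries, between a gene's centred profile and the mean centred profile of DNAJB1, HSPH1, HSP90AA1 and HSPA8. The nearest of all tested genes with a symbol were CACYBP (0.09), STIP1 (0.09), KIAA1147 (0.10), the small nucleolar RNA U3 (0.11) and HSPB1 (0.11). KIAA1147 and U3 are on none of the lists. KIAA1147 was at 123 FPKM in WT replicate 1 and at 52.0 to 70.7 FPKM elsewhere.

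Of the cochaperones of HSP70 and HSP90, 9 of 23 tested were highest in WT replicate 1 (11.2% of all genes tested) and 6 were there at least 1.5 times the median of the others (5.02% of all). This list shares 6 genes with the heat-inducible list. 1 of the 23 had an unadjusted p under 0.05 by label, near the 3.18% of all genes tested, and none an adjusted p under 0.05 in limma. It was FKBP5, an HSP90 cochaperone of steroid receptors and itself a target of the glucocorticoid receptor, at 34.2, 29.4 and 18.1 FPKM under the WT label and at 17.4, 14.3 and 16.0 FPKM under the leptin label. All WT-labelled values were above all leptin-labelled ones (difference -0.69, SE 0.23; limma, adjusted p = 0.993). The difference was -0.51 without WT replicate 1 and -0.58 without both replicate 1 libraries, in both cases with an unadjusted p over 0.05 and no overlap. FKBP8, a mitochondrial member of that family, was higher in every leptin-labelled library, at 109 to 124 FPKM against 94.7 to 108 FPKM. These 2 of 23 with no overlap were near the 7.63% of all genes tested. BAG6, the most abundant of the list after FKBP8, was at 74.2 to 91.6 FPKM with overlapping groups.

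J-domain proteins, the TRiC and prefoldin complexes and the mitochondrial chaperones were next. None of the 32 J-domain genes, 3 of the 12 TRiC and prefoldin genes (TCP1, CCT3 and CCT4) and none of the 11 mitochondrial genes were highest in WT replicate 1 (11.2% of all genes tested), and none in these 3 lists reached 1.5 times the median there. Instead 18 of the 32 J-domain and 9 of the 11 mitochondrial genes were highest in leptin replicate 1, against 28.0% of all genes tested. These counts used FPKM as deposited and depend on scaling between libraries. The median-of-ratios factor was largest for leptin replicate 1 (1.09) and smallest for WT replicate 1 (0.904), and the counts were not repeated after that scaling. DNAJC19, a J-domain protein of the mitochondrial inner membrane import motor, was at 8.54, 10.4 and 11.0 FPKM under the WT label and at 15.7, 13.5 and 12.7 FPKM under the leptin label (difference 0.45, SE 0.16; limma, adjusted p = 0.993). Without WT replicate 1 it was 0.35 and without both replicate 1 libraries 0.27, with an unadjusted p over 0.05. DNAJC19 and DNAJC15 made 2 of 32 J-domain genes with an unadjusted p under 0.05, against 3.18% of all genes tested. Of the other lists, 1 of 11 mitochondrial genes (DNAJC19) and 0 of 12 TRiC and prefoldin genes had one. DNAJC15, also of the inner membrane, was at 3.58, 2.12 and 4.81 FPKM under the WT label and at 8.26, 7.49 and 4.05 FPKM under the leptin label with the groups overlapping (difference 0.75, SE 0.30; limma, adjusted p = 0.993). It was 0.79 and 0.62 without these libraries, again with an unadjusted p over 0.05. DNAJC1, DNAJC4, DNAJC28 and the prefoldin subunit PFDN4 were also higher in every leptin-labelled library, by 0.20, 0.33, 0.36 and 0.24 on the log2 scale, each with an unadjusted p over 0.05. Together with DNAJC19 this made 4 of 32 J-domain and 1 of 12 TRiC and prefoldin genes with no overlap, near the 7.63% of all genes tested. Without both replicate 1 libraries the differences of DNAJC1, DNAJC4, DNAJC28 and PFDN4 were 0.17, 0.20, 0.38 and 0.19.

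The most abundant genes of these lists had overlapping groups. HSPA9, the mitochondrial HSP70 that imports and folds matrix proteins, was at 37.6 to 45.9 FPKM (difference 0.06), and the inner membrane protease YME1L1 at 17.8 to 20.8 FPKM. CCT7, a subunit of the cytosolic TRiC chamber, was at 82.2 to 94.3 FPKM (difference -0.02), and PFDN5 at 68.2 to 115 FPKM. DNAJC8, a J-domain protein of the spliceosome, was at 29.2 to 46.8 FPKM (difference 0.26), and DNAJA1, which binds HSP70 as a J-domain partner, at 170 to 367 FPKM (difference -0.18). HSPA14 and HSPA2, the other cytosolic HSP70 genes tested, were at 7.62 to 11.1 and 2.38 to 6.37 FPKM.

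**Figure D5:**
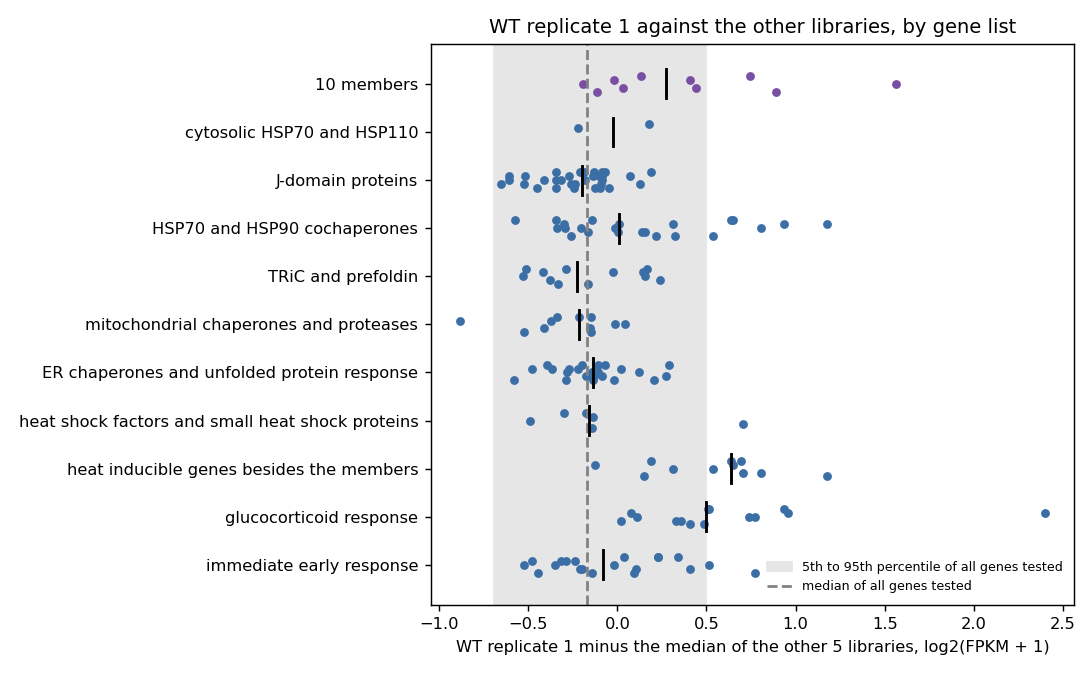
WT replicate 1 minus the median of the other 5 libraries on the log2(FPKM + 1) scale (x axis) for each gene (points) of the members and of the companion lists, with list medians as black bars and the 5th to 95th percentile of all genes tested in grey. Heat-inducible genes have a median of 0.64 and members of 0.27, while J-domain genes sit at -0.20, near the -0.17 of all genes tested.

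Among the genes of the ER and of the unfolded protein response, 13 of 25 tested were highest in WT replicate 3, as HSPA5 and HSP90B1 were, against 21.9% of all genes tested. They included PDIA4 (87.0 FPKM in WT replicate 3 against 53.5 to 74.6 elsewhere), PDIA6 (114 against 74.0 to 96.5), both disulfide isomerases, HYOU1 (47.8 against 29.2 to 39.9), the exchange factor of BiP, and XBP1 (48.9 against 31.1 to 43.2), a transcription factor of the unfolded protein response. These 4 were singled out after their values had been seen. Only EIF2AK3 and ATF4, 2 of the 25, were highest in WT replicate 1, ATF4 at 600.3 FPKM. SEL1L, the adaptor of ER-associated degradation, was the 1 gene of the 25 with an unadjusted p under 0.05, near the 3.18% of all genes tested, at 7.15, 7.40 and 8.62 FPKM under the WT label and at 6.08, 5.07 and 5.88 FPKM under the leptin label (difference -0.39, SE 0.15; limma, adjusted p = 0.993). It was -0.43 without WT replicate 1 and -0.48 without both replicate 1 libraries. CALR, a lectin chaperone, was at 167 to 231 FPKM with overlapping groups.

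The heat shock factors and small heat shock proteins numbered 6 tested genes, 0 of them with an unadjusted p under 0.05, against 3.18% of all genes tested. Without WT replicate 1 HSF4 was the 1 gene of the 6 with one (difference -0.83), where 271 of 10642 genes tested had one. It was also the 1 gene without both replicate 1 libraries (-0.97), where 242 of 10431 had one. Over all 6 libraries its difference was -0.48. HSF4 was at 27.9, 66.0 and 51.0 FPKM under the WT label and at 39.6, 27.5 and 30.8 FPKM under the leptin label. Its lowest values thus included WT replicate 1, unlike HSPB1 of the same list.

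Other stress readouts were not uniform across the same libraries. Of 14 glucocorticoid-responsive genes, 7 were highest in WT replicate 1 (11.2% of all genes tested) and 6 were there at least 1.5 times the median of the other libraries (5.02%), and none was highest in WT replicate 3. TXNIP was at 1088 FPKM in WT replicate 1 against 430 to 784 FPKM, DUSP1 at 869 against 225 to 600.2 FPKM, and SGK1 at 953 against 520.2 to 978 FPKM. By label 2 of the 14 had an unadjusted p under 0.05 (3.18% of all genes tested had), FKBP5 lower and NFKBIA higher under the leptin label. The median difference was -0.05, turning to 0.05 without WT replicate 1 and 0.08 without both replicate 1 libraries. In both of these NFKBIA was the 1 gene of the 14 with an unadjusted p under 0.05, where 271 of 10642 and 242 of 10431 genes tested had one. Neutrophil markers summed to 3459 FPKM in the same library, and their part in these values was not tested.

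Immediate early genes, which answer within minutes to handling of cells as well as to growth factors, showed a different order. Only ATF3, KLF6 and DUSP1, 3 of 20, were highest in WT replicate 1, whereas 12 were highest in leptin replicate 3, against 11.2% of all genes tested, and 12 were lowest in WT replicate 3, against 7.95%. By label 17 were higher and 3 lower under the leptin label with a median of 0.29, where 63.1% of all genes tested were higher, 3 of them with an unadjusted p under 0.05 (3.18% of all genes tested) and none with an adjusted p under 0.05 in limma. IER3 was at 8.14, 3.22 and 6.74 FPKM under the WT label and at 13.3, 23.7 and 9.56 FPKM under the leptin label (difference 1.22, SE 0.37; limma, adjusted p = 0.993), and without WT replicate 1 the difference was 1.44. ZFP36, which destabilises cytokine mRNAs, differed by 0.54 and IER5 by 0.43, both with no overlap. JUN (0.51) was also higher in every leptin-labelled library, which made 4 of 20 with no overlap against 7.63% of all genes tested, while JUNB (0.48) overlapped. Without both replicate 1 libraries 19 of the 20 were higher with a median of 0.53, where 43.2% of all genes tested were higher. IER3, ZFP36 (0.64) and JUNB (0.77) then had an unadjusted p under 0.05 (242 of 10431 genes tested had), while IER5 (0.39) did not. Without WT replicate 3, however, only 12 of the 20 were higher, or 60% against 67.5% of all genes tested. The median was then 0.13, near the 0.11 of all genes tested. Without leptin replicate 3 the count was 14 of 20 with a median of 0.19, where 60.2% of all genes tested were higher.

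Reads of near-identical copies could affect some of these levels, since HSPA8, HSP90AA1, HSPD1 and HSPE1 are known to have processed copies in mammalian genomes and the deposited values do not show how shared reads were divided. The p-values measure only the spread between these animals.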

How the data were processed

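PBMC RNA of 6 pigs was sequenced from strand-specific TruSeq libraries, 3 per label, each from a different animal. The authors deposited 1 FPKM value per gene and library. The paper names Bowtie, Ensembl and RSEM, whereas the submitters' processing notes name FastQC, STAR 2.5, Cuffnorm and DESeq 1.22.1, and which made the values is not given in the sources used here. Neither read counts nor depth are held by FPKM, so no counting interval is given. The table's fold change, p-value, FDR and mark columns, which are the authors' own comparisons, and its annotation columns were not used. Columns were matched to samples by animal code, and 0 were unmatched.

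Of 4000 genes with no symbol, 1466 were named by identifier in the reference table. Where a table symbol and an identifier entry both existed (5913 genes), 5604 were the same. Of rows sharing a symbol, the one with the highest mean was used. limma 3.58.1 in R 4.3.3 was fitted on log2(FPKM + 1), label only, over the 10735 genes that reached an FPKM of 1 in 3 or more libraries. Its p-values were two-sided and adjusted by the Benjamini-Hochberg method. The fit was first tested on simulated data. This scale understates changes of low genes. Exact permutation tests were run in SciPy 1.17.1. The alternatives were a pseudocount of 0.1, other filters, median-of-ratios scaling, no moderation, a replicate block and libraries left out. The members and lists were chosen with earlier results of these data known. Named genes were all members, LEP, per list up to 4 with no overlap and the largest difference plus the 2 most abundant, and the 5 nearest profiles. Other genes named, such as those behind small counts (DNAJC15, NFKBIA, TCP1, CCT3, CCT4, EIF2AK3, ATF3, KLF6), were named after their values had been seen. Some genes are not reported here. No sequence is printed.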

Additional observations from a re-analysis of the deposited data

How the results depend on the processing

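HSPA8 (-0.44 to -0.05), HSPH1 (-1.04 to -0.20) and HSPE1 (0.21 to 0.47) kept their direction in all 13 alternatives, and no member had an adjusted p under 0.05 in any (lowest 0.622, HSPE1). Leaving out 1 library at a time turned the sign of the others, whose differences ranged from -0.26 to 0.17 for HSPA4, -0.31 to 0.031 for DNAJB1, -0.43 to 0.14 for HSP90AA1, -0.10 to 0.042 for HSP90AB1, -0.18 to 0.091 for HSPA5, -0.11 to 0.14 for HSP90B1 and -0.13 to 0.061 for HSPD1. Without both replicate 1 libraries HSPA4 was at 0.15 and HSP90AA1 at 0.12. In all of these the cause was not tested.

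Leaving out 1 library gave 0 to 1 members with an unadjusted p under 0.05 (HSPE1 without WT replicate 1, HSPH1 without WT replicate 2), 1 to 5 members with no overlap between labels (5 without WT replicate 2, namely HSPA8, HSPA4, HSPH1 and DNAJB1 lower and HSPE1 higher under the leptin label, where 14.9% of all genes tested had no overlap) and a median of the members of -0.22 to 0.012 (-0.22 without WT replicate 2). Median-of-ratios scaling left 0 members without overlap. Over all genes, those with an adjusted p under 0.05 numbered 0 with FPKM of at least 1 in every library, 0 with no moderation, 0 without both replicate 1 libraries and 0 to 3 without 1 library, and those with an unadjusted p under 0.05 numbered 247 to 846 without 1 library (846 without WT replicate 3).

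Of the companion lists, no gene had an adjusted p under 0.05 in any of the 13 alternatives. The median of the immediate early genes was positive in all (0.13 to 0.53), but the lowest, without WT replicate 3, was near the 0.11 of all genes tested. In that setting 12 of the 20 were higher, where 67.5% of all genes tested were. The medians of the other lists turned sign in some, ranging from -0.28 to 0.08 for heat-inducible, -0.21 to 0.08 for glucocorticoid-responsive, -0.02 to 0.17 for J-domain and -0.05 to 0.16 for ER genes. The median of all genes tested ranged from -0.03 to 0.11.

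Replicate numbers belong to different animals and did not pair the samples, since the deviations of same-numbered libraries correlated at -0.28, 0.13 and -0.01. With the replicate block 1 member (HSPH1) had an unadjusted p under 0.05, where 384 of 10735 genes tested had one, and 2 genes had an adjusted p under 0.05. Depth is unknown, so no limit from counting could be set.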
